A study of Rattus norvegicus with 4 samples.

Results

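The genes described are those that set whether a cell in G1 enters another division or leaves the cell cycle: the D cyclins Ccnd1, Ccnd2 and Ccnd3, the kinases Cdk4 and Cdk6, the pocket protein gene Rb1, and the CDK inhibitors Cdkn2c, Cdkn1a, Cdkn1b and Cdkn1c. They were chosen by name as a functional group, and 9 of the 10 were found among the 14410 genes of the expression table. No row carried the name Cdk6, which is therefore not analysed here. The samples were cultures of CG4, a line of rat glial progenitors able to form oligodendrocytes (the cells that make myelin in the brain and spinal cord), and their RNA was sequenced. One group (ctrl, genotype WT, GFP+) had been transduced with a retrovirus carrying CAG-IRES-GFP, and the other (Phf8oe, genotype WT, Phf8+ GFP+) with one carrying CAG-Phf8-IRES-GFP, so that GFP and the CAG promoter are common to both. All cells were sorted for GFP 2 days after transduction, expanded and kept in differentiating medium for 3 days. There were 2 libraries per group, which the labels call biological replicates without saying whether the transductions were separate, and the p-values measure only the spread between these libraries.

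D cyclins bind CDK4 and CDK6, and the active kinases phosphorylate the retinoblastoma protein, which releases E2F factors and opens S phase. INK4 inhibitors such as the product of Cdkn2c block CDK4 and CDK6, while the Cip/Kip inhibitors p21 (Cdkn1a), p27 (Cdkn1b) and p57 (Cdkn1c) bind cyclin-CDK complexes more broadly. In the oligodendrocyte lineage, growth factors such as PDGF keep progenitors dividing, and in rodents p27 builds up as progenitors approach the end of their divisions.

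The unit throughout is the normalized count, a read count per gene divided by a library factor and rounded. Totals lay between 39945215 and 41149255 per library, from about 28400000 to 47800000 estimated reads. Phf8, encoding a histone lysine demethylase, stood at 2026 and 2205 in ctrl and at 5650 and 10796 in Phf8oe, a log2 fold change of 1.89 (SE 0.35, limma adjusted p = 0.0631). It thus lay above ctrl in each Phf8oe library without passing the threshold of 0.05, and the Phf8oe libraries differed from each other by 1.91-fold. Phf8 passed in 4 of 15 alternative ways of processing, among them moderation that is not robust (limma adjusted p = 0.0194). Its log2 fold change was 2.35 without Phf8oe replicate 1 and 1.42 without Phf8oe replicate 2. It was 1.82 without ctrl replicate 1 and 1.95 without ctrl replicate 2. All 12 oligodendrocyte lineage markers had counts in every library. So did each listed marker of other cell types that had a row, so the presence of counts does not test the label. The CG4 cells are a line and the values are averages over whole cultures, so fewer cells of a type and less RNA per cell cannot be told apart.

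Among the G1 genes, Ccnd2 and Cdkn1c fell with Phf8 overexpression. None rose, and 7 did not pass the test. The 2 of 9 that fell stand beside 4.65% of the 14368 tested genes that fell, 2.99% that rose and 7.64% called in either direction (limma, Benjamini-Hochberg adjusted p under 0.05 over all tested genes). In numbers, 430 genes rose and 668 fell, and after rescaling to the same upper quartile 614 and 598. The median log2 fold change of the 9 genes was -0.01, against 0.00 for all tested genes, and 0.03 after rescaling to the same upper quartile, which moved all genes to 0.05. The groups did not overlap in 4 of the 9 genes, lower in 3 (Ccnd1, Ccnd2 and Cdkn1c) and higher in 1 (Cdkn2c). That is a smaller share than over all tested genes, where the groups were separate in 57.6%, with 28.7% lower and 28.9% higher in Phf8oe. The number of G1 genes past the threshold was 0 without ctrl replicate 1, without ctrl replicate 2 and with no variance trend, and 3 without Phf8oe replicate 1.

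**Figure D1:**
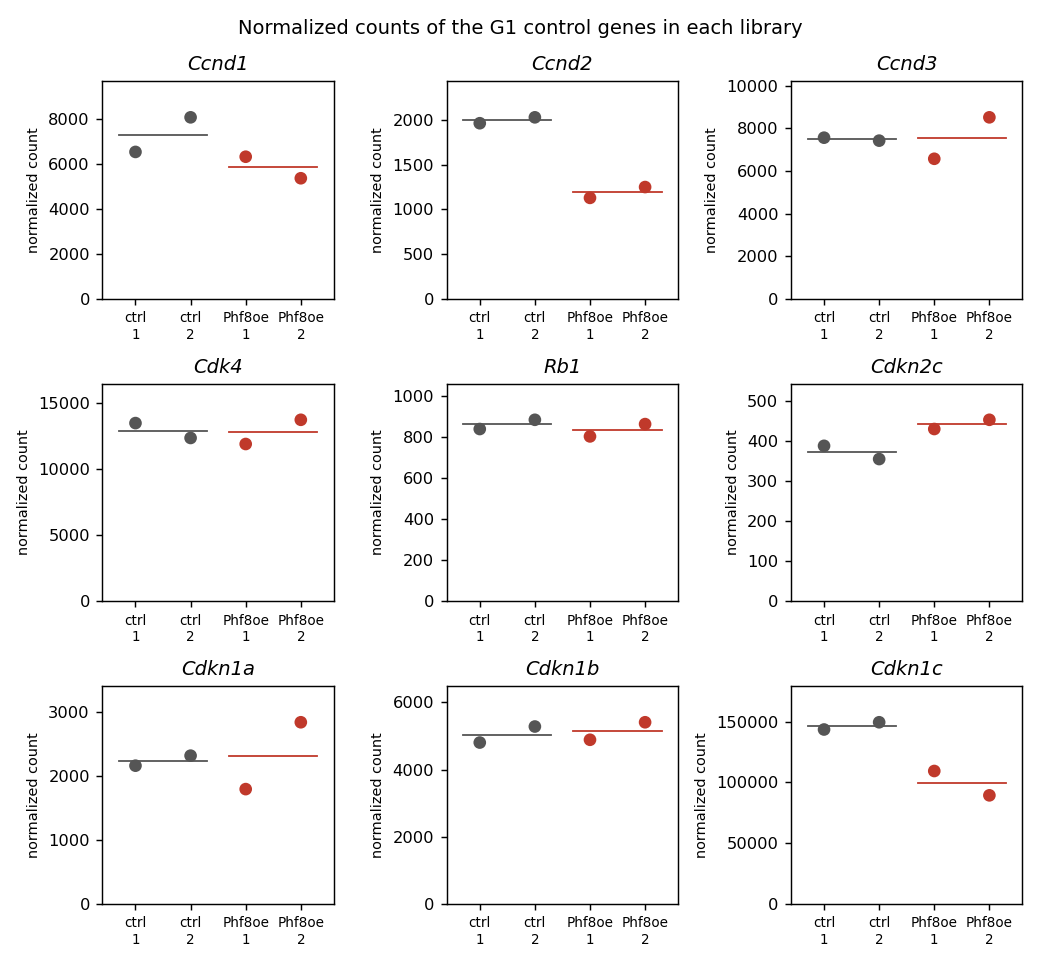
Normalized counts (vertical axes, starting at 0) of 9 G1 control genes in each of the 4 libraries, ctrl in grey and Phf8oe in red, with a line at each group's mean. For Ccnd2 and Cdkn1c the red points all lie under the grey ones, and the Cdkn1a values of the Phf8oe libraries lie on either side of those of ctrl.

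Ccnd2 encodes cyclin D2, an activating partner of CDK4 and CDK6. The ctrl libraries held 1964 and 2030 normalized counts of Ccnd2 and the Phf8oe libraries 1129 and 1250. Each Phf8oe library was lower than each ctrl library, and the gap was wider than the distance between replicates. On the log2 scale Ccnd2 changed by -0.75 (SE 0.11, n = 2 per group), so that it was 1.68-fold lower with a 95% interval of 1.41 to 2.00 (limma adjusted p = 0.00775). The call was lost on leaving out ctrl replicate 1 (limma adjusted p = 0.14) or ctrl replicate 2 (0.0744), and with a variance prior that had no trend (0.108). Over the fits with 1 library removed, the log2 change of Ccnd2 stayed between -0.82 and -0.68.

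Ccnd1, encoding cyclin D1, the D cyclin classically induced by growth factor signalling, had 6521 and 8057 normalized counts in ctrl and 6308 and 5352 in Phf8oe. The groups were separate by a small margin, ctrl replicate 1 lying close to Phf8oe replicate 1. The log2 fold change of -0.32 (SE 0.13, 95% interval -0.62 to -0.02) did not pass (limma adjusted p = 0.168). Leaving out ctrl replicate 2 brought it to -0.17, and leaving out Phf8oe replicate 1 brought it to -0.44, where it passed (limma adjusted p = 0.038).

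Ccnd3, encoding cyclin D3, had 7559 and 7420 normalized counts in ctrl and 6569 and 8514 in Phf8oe. The Phf8oe libraries lay on either side of ctrl, and the log2 fold change was -0.00 (SE 0.13, 95% interval -0.30 to 0.29, limma adjusted p = 0.994). The 95% interval of Ccnd1 overlaps those of both Ccnd2 and Ccnd3, and differences between the D cyclins in their change were not tested.

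The balance between D cyclins was also followed as a ratio within each library. Because reads per gene depend on transcript length, only the shift of such a ratio between libraries can be read, not its level. The log2 ratio of Ccnd2 to Ccnd1 was -1.73 and -1.99 in ctrl and -2.48 and -2.10 in Phf8oe. It was lower in both Phf8oe libraries, by a mean of 0.43 (SD 0.18 in ctrl and 0.27 in Phf8oe). The separation was narrow, since the gap between -1.99 and -2.10 was smaller than the distance between replicates in either group. Leaving out Phf8oe replicate 1 changed the mean difference to -0.24 and leaving out Phf8oe replicate 2 to -0.62. The log2 ratio of Ccnd3 to Ccnd1 was 0.21 and -0.12 in ctrl and 0.06 and 0.67 in Phf8oe, so the groups overlapped. With 2 libraries per group an exact two-sided permutation test cannot give a p under 0.33, and none is given for the ratios.

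Cdk4 encodes the kinase that D cyclins activate. In cultured human and mouse cells it is a described target of Myc, a factor that binds the E-box CACGTG with its partner Max. The 250 bases upstream of the rat Cdk4 start site are shown because this short stretch holds that motif 3 times. The sequence is from RefSeq on assembly GRCr8, chr7:64771203-64771452, plus strand, which is the strand of the gene, and capitals mark each CACGTG.
Cdk4: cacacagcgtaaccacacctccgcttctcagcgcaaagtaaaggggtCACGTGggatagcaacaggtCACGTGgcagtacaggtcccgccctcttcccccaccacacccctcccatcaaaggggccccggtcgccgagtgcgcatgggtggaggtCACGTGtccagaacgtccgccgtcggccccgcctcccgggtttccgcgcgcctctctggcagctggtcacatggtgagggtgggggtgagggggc

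The motif CACGTG reads the same on both strands, and its first bases lie 203, 183 and 95 bases before the start site. Over 27457 rat promoter windows of the same length, 5.79% held CACGTG at least once and 16 windows, or 0.0583%, held it 3 times or more. A promoter sequence was matched for 6 of the 9 genes (Ccnd3, Cdk4, Cdkn1a, Cdkn1b, Cdkn2c and Rb1), and Cdk4 was the 1 with this motif. The letters of 2 E2F motifs, TTTCCCGC and TTTGGCGC, and of a forkhead motif, GTAAACA, searched on both strands, were in none of the 6 windows. They were in 0.856%, 0.426% and 3.25% of all windows. A match in letters is a description and does not show binding.

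Cdk4 had 13497 and 12371 normalized counts in ctrl and 11913 and 13747 in Phf8oe. The groups overlapped, and the log2 fold change was -0.01 (SE 0.11, 95% interval -0.27 to 0.24, limma adjusted p = 0.954). Myc itself had 20022 and 22052 in ctrl and 20571 and 23868 in Phf8oe, and Max, its binding partner, had 4053 and 4230 against 4164 and 3993. Neither passed the test (log2 fold change 0.08 with limma adjusted p = 0.716 for Myc, and -0.02 with limma adjusted p = 0.911 for Max), and these factors were picked for the promoter motif after their values were seen. Cdk4 overlaps Tspan31 in GRCr8 and has 4 named pseudogenes there, so its reads may not all be its own. The same limit holds for Ccnd3, which has 1 named pseudogene in GRCr8. Tspan31 had a log2 fold change of -0.00 (limma adjusted p = 0.992).

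Rb1, encoding the retinoblastoma protein that restrains E2F factors, had 840 and 885 normalized counts in ctrl and 804 and 864 in Phf8oe. The groups overlapped, with a log2 fold change of -0.05 (SE 0.12, 95% interval -0.32 to 0.23, limma adjusted p = 0.834). The short gene Lpar6 lies within the span of Rb1 but had only between 50 and 60 normalized counts.

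Cdkn2c, encoding the INK4 inhibitor p18, was the 1 gene of the group higher in both Phf8oe libraries. It had 388 and 355 normalized counts in ctrl and 430 and 453 in Phf8oe. The log2 fold change of 0.25 (SE 0.15, 95% interval -0.10 to 0.60) did not pass (limma adjusted p = 0.334). Of the other INK4 genes, Cdkn2a, whose locus encodes both p16 and the p53 regulator ARF, had 7865 and 8061 in ctrl and 9285 and 9707 in Phf8oe. Cdkn2b, encoding p15, had 971 and 1031 in ctrl and 906 and 865 in Phf8oe. Cdkn2a was higher and Cdkn2b lower in both Phf8oe libraries, but neither passed (limma adjusted p = 0.135 and 0.375).

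Cdkn1c, encoding p57, fell. The ctrl libraries held 143699 and 149673 normalized counts and the Phf8oe libraries 109475 and 89403. The groups did not overlap, and the Phf8oe libraries were farther apart than those of ctrl. On the log2 scale Cdkn1c changed by -0.57 (SE 0.13, n = 2 per group), so that it was 1.48-fold lower with a 95% interval of 1.21 to 1.82 (limma adjusted p = 0.0333). Cdkn1c took 0.356% and 0.375% of all normalized counts in ctrl, and 0.266% and 0.222% in Phf8oe.

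The call of Cdkn1c was lost on leaving out ctrl replicate 1 (limma adjusted p = 0.279) or ctrl replicate 2 (0.184), with moderation that is not robust (0.0774) and with no variance trend (0.161). Over the fits with 1 library removed, its log2 change ranged from -0.71 to -0.42.

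Cdkn1b encodes p27, which in rodent oligodendrocyte progenitors is tied to the end of division. It had 4805 and 5283 normalized counts in ctrl and 4888 and 5410 in Phf8oe, and the groups overlapped. The log2 fold change was 0.03 (SE 0.11, 95% interval -0.21 to 0.27, limma adjusted p = 0.888). The interval leaves room for changes of up to 1.20-fold higher or 1.16-fold lower.

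Cdkn1a, encoding p21, the inhibitor best known as a p53 target, had 2162 and 2319 in ctrl and 1795 and 2842 in Phf8oe. The Phf8oe libraries differed from each other by 1.58-fold, the widest replicate gap of the 9 genes, and enclosed both ctrl libraries. The log2 fold change was 0.01 (SE 0.22, 95% interval -0.53 to 0.55, limma adjusted p = 0.98). It was 0.34 without Phf8oe replicate 1 and -0.32 without Phf8oe replicate 2, so no direction can be given for Cdkn1a.

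Within the Cip/Kip family, ratios were taken in the same way, without a test of the difference between the genes. The log2 ratio of Cdkn1c to Cdkn1b was 4.90 and 4.82 in ctrl and 4.48 and 4.05 in Phf8oe. It was lower in both Phf8oe libraries, with a mean difference of -0.60 against SDs of 0.06 in ctrl and 0.31 in Phf8oe. The gap between the groups was smaller than the distance between the Phf8oe libraries. The log2 ratio of Cdkn1a to Cdkn1b was -1.15 and -1.19 in ctrl and -1.44 and -0.93 in Phf8oe, and here the groups overlapped.

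**Figure D2:**
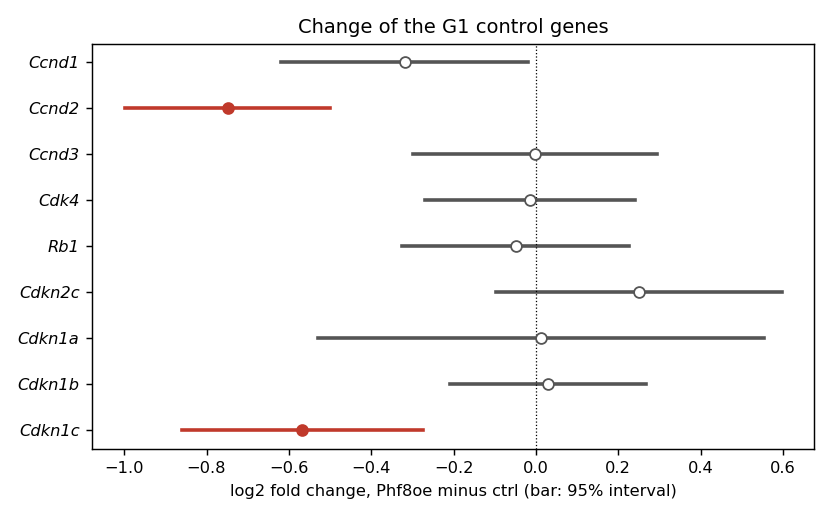
Log2 fold change (Phf8oe minus ctrl, horizontal axis) of 9 G1 control genes, with bars for 95% intervals of the moderated fit on 2 libraries per group. Filled red points passed the limma test (Ccnd2 at -0.75 and Cdkn1c at -0.57) and open points did not, and the widest interval is that of Cdkn1a, from -0.53 to 0.55.

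By the likeness rule, the gene with the smallest p of the group, Ccnd2, was set against 11410 genes with a mean of at least 100. The distance is that between log2 profiles centred on their mean over the 4 libraries. The nearest were Efna4 at a distance of 0.03 (220 and 223 in ctrl, 126 and 140 in Phf8oe), Myo5a at 0.04 and Map3k4 at 0.05. Myo5a, a myosin motor gene, had 5124 and 5169 against 2828 and 3220, and Map3k4, a stress kinase gene, had 3924 and 4131 against 2291 and 2612. These genes were picked for a profile like that of Ccnd2, so their p-values follow from the choice and are given as a description: Myo5a and Map3k4 lay under the threshold (limma adjusted p = 0.00578 and 0.00788) and Efna4 did not (limma adjusted p = 0.0562). Both calls were lost without either ctrl library, at limma adjusted p = 0.127 and 0.0595 for Myo5a and 0.139 and 0.0789 for Map3k4.

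Further genes of the pathway were read from 9 lists. Their counts of called genes stand beside the 2.99% of all tested genes that rose and the 4.65% that fell. In lists this short, 1 call is not read as a result about the list. Downstream of the D cyclins, 1 of 11 genes of cyclin E, cyclin A and CDK2 rose and none fell. Ccne1, the cyclin E1 partner of CDK2, went from 895 and 864 to 1206 and 1427 (1.49-fold, limma adjusted p = 0.0296). Of 12 E2F, DP and Rb-related genes 1 rose, E2f1, an activating E2F, which went from 419 and 375 to 581 and 663 (1.56-fold, limma adjusted p = 0.0367). Both genes were higher in each Phf8oe library than in each ctrl library. Without ctrl replicate 1 neither passed (limma adjusted p = 0.24 for Ccne1 and 0.229 for E2f1), nor without ctrl replicate 2 (0.149 and 0.184), and E2f1 also missed the threshold without Phf8oe replicate 2 (0.0565) and with moderation that is not robust (0.0545). None of 6 MuvB genes passed the test. The log2 change was 0.04 for Rbbp4, a histone-binding subunit, and 0.22 for Mybl2, which joins MuvB in S phase.

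Of 13 genes for the turnover of D cyclins and p27, 1 rose. This was Skp2, the ubiquitin ligase subunit that targets p27 protein, with 958 and 1045 in ctrl and 1334 and 1450 in Phf8oe (1.39-fold, limma adjusted p = 0.042). Skp2 was higher in both Phf8oe libraries, while the Cdkn1b transcript overlapped between the groups as above. The call of Skp2 was lost without ctrl replicate 1 (limma adjusted p = 0.362), ctrl replicate 2 (0.133) or Phf8oe replicate 2 (0.0622) and with moderation that is not robust (0.0616). Protein was not measured.

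Among 16 transcription factors known to act on genes of this group, 3 fell, none rose and 13 did not pass. Lef1, a Wnt effector for which Ccnd1 is a described target in human cells, fell from 2288 and 2604 to 1389 and 1208 (1.88-fold, limma adjusted p = 0.00515). Stat3, a cytokine-activated factor, fell from 16416 and 14843 to 9367 and 10148 (1.60-fold, limma adjusted p = 0.00898). Foxo3, a forkhead factor that can activate Cdkn1b, fell from 1934 and 1930 to 1386 and 1433 (1.37-fold, limma adjusted p = 0.0333). The groups were separate and lower in 9 of the 16 factors, or 56.3%, beside 28.7% of all tested genes. None of the 16 passed without ctrl replicate 1 (limma adjusted p = 0.078, 0.183 and 0.294 for Lef1, Stat3 and Foxo3) or without ctrl replicate 2 (0.0595, 0.058 and 0.164). The number was 5 without Phf8oe replicate 1 and 6 without Phf8oe replicate 2.

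In the list of S phase genes, 1 of 25 rose and none fell. It was Chaf1b, a histone chaperone subunit, with 293 and 324 in ctrl and 471 and 524 in Phf8oe (1.61-fold, limma adjusted p = 0.0351). The estimate was above zero for 24 of the 25, or 96.0%, beside 50.4% of all tested genes, with a median log2 fold change of 0.29. That median was 0.15 without Phf8oe replicate 2, with 21 estimates above zero, and 0.41 without Phf8oe replicate 1. In the list of G2 and mitosis genes, 2 of 21 rose and none fell. Cdc20, an activator of the anaphase-promoting complex, rose from 1638 and 1964 to 2585 and 2744 (1.48-fold, limma adjusted p = 0.026), and Birc5, a passenger protein of mitotic chromosomes, rose from 655 and 727 to 998 and 1049 (1.48-fold, limma adjusted p = 0.0304). The median of this list was 0.32, and 19 of the 21 estimates were above zero. Without ctrl replicate 1 the median was 0.16, with 17 above zero, and without ctrl replicate 2 it was 0.44. Genes of these lists can vary together in a culture and are not independent of each other. No gene of either list passed without ctrl replicate 1 or without ctrl replicate 2 (limma adjusted p = 0.317 and 0.124 for Chaf1b, 0.297 and 0.0679 for Cdc20, 0.297 and 0.105 for Birc5). Without Phf8oe replicate 1, 11 S phase genes and 5 genes of G2 and mitosis passed.

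Of 13 p53 targets other than Cdkn1a, 1 rose and 1 fell. Gadd45a, a growth arrest gene, rose from 1459 and 1676 to 2643 and 2595 (1.67-fold, limma adjusted p = 0.00795), and Plk2, a polo-like kinase gene, fell from 2843 and 2734 to 1415 and 1890 (1.70-fold, limma adjusted p = 0.0187). The median log2 fold change was -0.13, and it lay between -0.23 (without Phf8oe replicate 2) and -0.05 (without Phf8oe replicate 1) with a library left out, at -0.21 without ctrl replicate 1. Without ctrl replicate 1 neither passed (limma adjusted p = 0.16 for Gadd45a and 0.24 for Plk2), without ctrl replicate 2 Plk2 did not (0.117), and without Phf8oe replicate 2 the number past the threshold was 6.

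**Figure D3:**
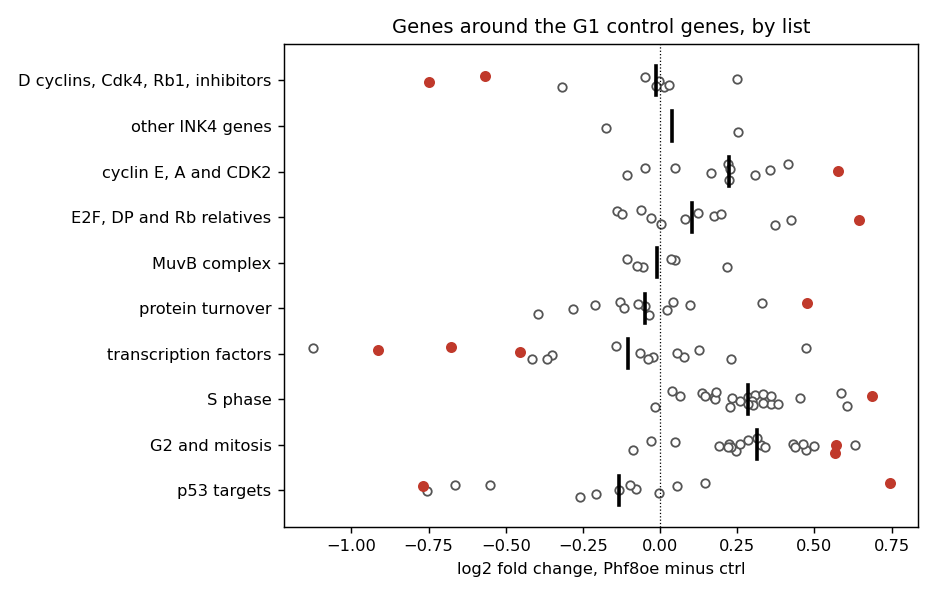
Log2 fold change (Phf8oe minus ctrl, horizontal axis) of the G1 control genes (top) and of 9 lists of related genes, 1 point per tested gene, filled red where it passed the limma test, with a black line at the list median. The medians of S phase (0.29) and of G2 and mitosis (0.32) lie above zero, and that of the G1 control genes lies at -0.01 (0.03 after rescaling to the same upper quartile).

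The summed counts of oligodendrocyte lineage, astrocyte and neuronal markers were separate between the groups, while single markers went both ways. Summed normalized counts of the 12 lineage markers were 629440 to 631651 in ctrl and 838027 to 920598 in Phf8oe, with 4 rising and 1 falling. The marker that fell was Pdgfra, the progenitor receptor for PDGF, with 18113 and 17240 in ctrl and 10250 and 9286 in Phf8oe (1.81-fold, limma adjusted p = 0.00361, and 0.101 without ctrl replicate 1). The 7 of 8 astrocyte markers with a row summed to between 110685 and 115701 in ctrl and between 45206 and 53855 in Phf8oe. Gfap, an astrocyte filament gene, made up most of the ctrl sum, with 79141 and 80736 in ctrl and 10834 and 19613 in Phf8oe (limma adjusted p = 0.022), while in Phf8oe Aldoc had the higher count (23120 and 21587). Of the 7, Gfap fell and 2 rose, Aldh1l1 from 9 and 10 to 32 and 44 (limma adjusted p = 0.0251) and Slc1a3, a glutamate transporter gene, from 1063 and 1192 to 1614 and 1692 (limma adjusted p = 0.0254). These 3 calls were lost without either ctrl library, at limma adjusted p = 0.202 and 0.108 for Gfap, 0.229 and 0.111 for Aldh1l1 and 0.287 and 0.0912 for Slc1a3. The 7 of 8 neuronal markers summed to between 23000 and 28780 in ctrl and between 15837 and 16503 in Phf8oe. Nefm, a neurofilament gene, fell from 4142 and 2665 to 869 and 1201 (limma adjusted p = 0.0315), and the other 6 did not pass. Map2 had the highest counts of the 7 in Phf8oe (8319 and 7550), with a log2 fold change of 0.07. The part of these shifts in the falls of Ccnd2 and Cdkn1c was not tested.

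Markers of further cell types were also read, and whether their counts come from other cells or from the CG4 cells was not tested. Of the fibroblast and pericyte markers 1 of 8 had a row, Col1a1, with 437 to 454 in ctrl and 121 to 164 in Phf8oe. The 3 of 7 microglial markers with a row summed to between 197 and 307 in ctrl and between 204 and 273 in Phf8oe. The 3 of 6 endothelial markers summed to between 2674 and 3247 in ctrl and between 3097 and 3198 in Phf8oe, most of it Vwf. No listed marker that had a row was at 0 in any library, and nothing can be said of the listed markers without a row.

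**Figure D4:**
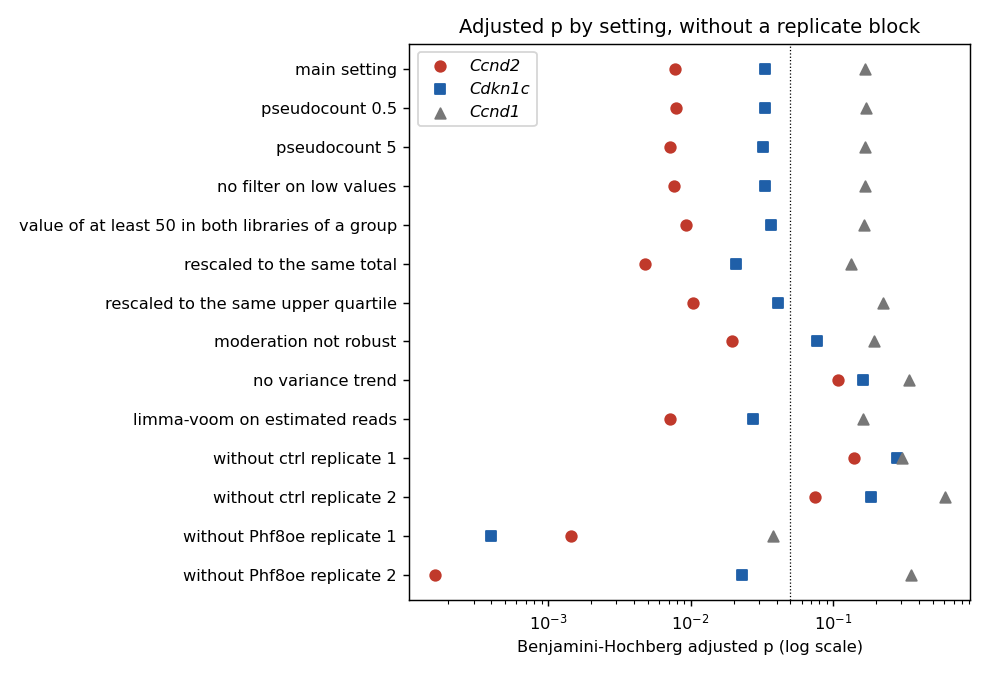
Benjamini-Hochberg adjusted p (horizontal log axis) of Ccnd2, Cdkn1c and Ccnd1 in limma under each way of processing that has no replicate block (vertical axis), with a dotted line at 0.05. Ccnd2 crosses the line without either ctrl library and with no variance trend, Cdkn1c also with moderation that is not robust, and Ccnd1 lies under it without Phf8oe replicate 1.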

How the data were processed

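The table gives 1 value per gene and library. The submitters' processing notes name bcl2fastq 2.20, Trimmomatic 0.36, STAR 2.5.2b, DESeq2 and the builds rn6 and Rnor_6.0. For the gene counter, the annotation release, strand use and the gene filter, the sources used here give nothing. Although the labels call the deposited signal raw, its spacing shows scaled and rounded counts. All 41 whole numbers up to 150 that such scaling skips were absent in Phf8oe replicate 2. A read was worth 0.844 and 1.02 in the ctrl and 0.955 and 1.42 in the Phf8oe libraries, so whole reads could not be recovered in every library.

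The test was limma 3.58.1 (R 4.3.3) applied to log2(value + 1), which understates changes of low genes. It covered the 14368 of 14410 genes that reached 10 in 2 or more libraries. Group was the only term, and variance moderation followed the mean level and was robust. Each gene had 2 residual degrees of freedom, and the prior taken from the other genes had a median of 6.99. The p-values and intervals therefore rest largely on the variance of other genes in these libraries. All p-values were two-sided and Benjamini-Hochberg adjusted over all tested genes. Replicates were not duplicates: the chi-square statistic per gene was 21.0 in ctrl and 34.3 in Phf8oe, where counting error alone gives about 1. The procedure was tested on simulated data. Named were all members, Phf8, up to 4 called genes per list by smallest p or, with none called, the 2 with the highest mean, and the 3 genes most like the member of smallest p. The ratio of Cdk6 to Cdk4 was not computed. Members and lists were chosen with earlier results of these data known. Promoters and gene neighbours come from RefSeq on GRCr8, which is not the build of the counts. Tables were handled in Python 3.11.15 with pandas 2.3.3.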

Additional observations from a re-analysis of the deposited data

How the results depend on the processing

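Ccnd2 and Cdkn1c stayed lower in Phf8oe under all 15 alternatives, past the threshold in 12 and 10 of them. Of 14368 genes 1098 were called, against 0 with no variance trend (3133 at an unadjusted p under 0.05) and 20 to 2145 with a library left out (20 without ctrl replicate 1, 190 without ctrl replicate 2 and 1848 without Phf8oe replicate 1). Of the 9 members 2 passed, against 1 with moderation that is not robust, 0 with no variance trend and 0 to 3 with a library left out. Such fits take the spread of the group that lost a library from the other group alone. Cdkn1c did not pass with moderation that is not robust or with no variance trend (both -0.57), nor did Ccnd2 with no variance trend (-0.75). The cause was not tested. With a library left out, the lists held 0 to 11 called S phase genes, 0 to 5 of G2 and mitosis, 0 to 6 p53 targets, 0 to 6 transcription factors and 0 to 2 turnover genes, and with no variance trend 0 in every list. Voom called 5 transcription factors, and upper quartile rescaling 2 S phase genes. The difference in log2 ratio ranged over its 6 alternatives from -0.82 to -0.38 for Cdkn1c to Cdkn1b, from -0.62 to -0.24 for Ccnd2 to Ccnd1, from 0.01 to 0.62 for Ccnd3 to Ccnd1 and from -0.28 to 0.24 for Cdkn1a to Cdkn1b.

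With a library left out, the ranges of log2 fold change were -0.82 to -0.68 for Ccnd2, -0.714 to -0.422 for Cdkn1c, -0.472 to -0.166 for Ccnd1, -0.319 to 0.344 for Cdkn1a, -0.0437 to 0.103 for Cdkn1b, -0.189 to 0.185 for Ccnd3, -0.117 to 0.0893 for Cdk4 and -0.101 to 0.00299 for Rb1. Some estimates near zero changed sign. Rescaling to the same total gave -0.00753 for Cdkn1a, and limma-voom on estimated reads gave -0.00324. Rescaling to the same upper quartile gave 0.0405 for Ccnd3, 0.0285 for Cdk4, 0.0204 for Max and 0.0402 for Tspan31, and turned the split of all calls from 430 higher and 668 lower to 614 and 598. With a library left out Myc ranged from -0.0306 to 0.184, Max from -0.0529 to 0.00873, Tspan31 from -0.101 to 0.0962, Rbbp4 from -0.0332 to 0.104 and Aldoc from -0.0181 to 0.291.

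Deviations of same-numbered libraries correlated at r = -0.13 over 14368 genes, and those of crossed libraries at 0.13. With 2 libraries per group these are the same value with its sign turned. The check therefore cannot show whether same-numbered libraries were paired. With the replicate number as a block 373 genes and 1 member passed, and Cdkn1c (-0.57, limma adjusted p = 0.0728) did not, while Phf8 did (0.0313). The block left 1 p53 target and 0 genes of S phase, G2 and mitosis, cyclin E, E2F and turnover. A crossed pairing, added after the data were examined, gave 2354 genes and 3 members, Ccnd1 (-0.32) included.

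For 36 named genes outside the members, 9 of 538 alternative values changed sign, 76 lost a call and 7 gained one.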

Other observations

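Genes near the 9 members in the GRCr8 assembly were looked at after the data were examined. Within 200 kb of a member lay 50 tested genes, of which 1 rose and 2 fell, a share near the 7.64% called over all tested genes. Mrps10, a mitochondrial ribosomal protein gene near Ccnd3, rose from 758 and 753 to 1114 and 1140 normalized counts (1.49-fold, limma adjusted p = 0.0229). Gprc5a, encoding a receptor induced by retinoic acid, lies near Cdkn1b and fell from 122 and 135 to 11 and 38 (limma adjusted p = 0.0428). Ctdsp2, a phosphatase gene near Cdk4, fell from 3017 and 3006 to 2290 and 2100 (1.37-fold, limma adjusted p = 0.0312). The 3 calls were lost without ctrl replicate 1 (limma adjusted p = 0.226 for Mrps10, 0.308 for Gprc5a and 0.292 for Ctdsp2) and without ctrl replicate 2 (0.124, 0.184 and 0.158).

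Beside the members that fell, the tested neighbours did not pass. Near Ccnd2 lay Tigar, a regulator of glycolysis, with 636 and 587 in ctrl and 678 and 721 in Phf8oe, and Rad51ap1, a recombination gene, with 277 and 287 against 350 and 418. Near Cdkn1c, which is imprinted in mouse and human, lay Nap1l4, with 7544 and 7686 against 8266 and 8321, and Kcnq1, with 12 and 24 against 42 and 23.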
